A study of Mus musculus with 68 samples.

Results

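Akr1b10 and 9 genes of the xenobiotic response were followed in 68 benign skin papillomas of 37 mice. The 10 genes were picked by symbol, and Akr1b10 includes probesets of its older symbol 2310005E10Rik. They have 21 probesets on an Affymetrix mouse genome array, and the array holds probesets of 1 symbol for 18193 genes. All papillomas came from FVBBX mice, a cross of (SPRET/Ei x FVB/N) hybrids back to FVB/N, so that no 2 mice carry the same genome. Tumors were raised on the skin with 25 μg of the carcinogen DMBA in 200 μl acetone at 8 to 12 weeks of age, followed by 20 weeks of the tumor promoter TPA. Susceptible mice (12 mice, 22 arrays) carried 9 to 35 papillomas at 20 weeks, intermediate mice (19 mice, 35 arrays) 2 to 7 and resistant mice (6 mice, 11 arrays) 0 or 1. There was no untreated group, and a resistant mouse gave papillomas to the arrays although it had few at 20 weeks.

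Levels are RMA values on the log2 scale, and the 2 papillomas of a mouse were averaged, so that n counts mice. Array medians ran from 5.18 to 5.28, and levels below them may carry little signal over background, which was not measured. Tests used the 21581 probesets with 1 symbol that lay above their array's median in at least 11 arrays, and p-values were adjusted over all of them. Of the 21 member probesets 19 passed this filter, 14 of them above the median in all 68 arrays, and each of the 10 genes kept at least 1. The other 2, one of Akr1b10 and one of Cyp1b1, were never above it. A gene is given by its probeset of highest mean unless another is named, and for Akr1b10 that probeset is called the first. Mice had entered treatment in 7 start cohorts. In 6 mice (1 susceptible, 4 intermediate, 1 resistant) Xist or the Y-linked gene Eif2s3y went against the sex label. All 14 tested keratinocyte markers were measured, with a mean between 12.10 and 13.21 in every mouse. A lower level in a papilloma can come from fewer cells of a type or from less RNA per cell, and these cannot be told apart here.

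Cells meet foreign chemicals and reactive oxygen with enzyme systems under a few transcription factors. DMBA binds the aryl hydrocarbon receptor AHR, which raises Cyp1a1 and Cyp1b1, the cytochromes P450 that turn DMBA into its DNA-binding form. The factor NRF2 (gene Nfe2l2), held down by KEAP1, raises Nqo1, a quinone reductase, Gclc and Gclm, the catalytic and modifier subunits of the enzyme that starts glutathione synthesis, Txnrd1, a thioredoxin reductase, Srxn1, which restores oxidized peroxiredoxins, and Hmox1, which breaks down heme. Gsta4 joins glutathione to the lipid peroxidation product hydroxynonenal. AKR1B10, an aldo-keto reductase, reduces aldehydes and, in human cells, retinal, and is a known NRF2 target in human cells. NRF2 acts through the antioxidant response element and AHR through the xenobiotic response element.

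The cores of both elements were searched on both strands in RefSeq promoters (GRCm38.p6, 250 bases before to 50 after the start). The antioxidant core TGACNNNGC lay in 12.4% of all 32851 promoters and the xenobiotic core GCGTG in 32.4%. For 7 of the 10 genes the table held a promoter, 9 in all. The antioxidant core lay in 3 of these 9 and the xenobiotic core in 7. The promoters of Akr1b10, Gclm and Srxn1 are shown because these genes had partly different relations over the mice, as described below. Gclm and Srxn1 both varied with Nqo1, Gclc and Gsta4. Capitals mark matches to either core.
Akr1b10, chr6:34383997-34384296, plus strand: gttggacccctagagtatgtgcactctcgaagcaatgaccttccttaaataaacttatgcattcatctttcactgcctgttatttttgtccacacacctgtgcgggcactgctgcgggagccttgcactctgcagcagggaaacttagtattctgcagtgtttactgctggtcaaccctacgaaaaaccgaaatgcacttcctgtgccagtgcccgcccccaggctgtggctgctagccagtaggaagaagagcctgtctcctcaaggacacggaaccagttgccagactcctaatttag
Gclm, chr3:122245307-122245606, plus strand: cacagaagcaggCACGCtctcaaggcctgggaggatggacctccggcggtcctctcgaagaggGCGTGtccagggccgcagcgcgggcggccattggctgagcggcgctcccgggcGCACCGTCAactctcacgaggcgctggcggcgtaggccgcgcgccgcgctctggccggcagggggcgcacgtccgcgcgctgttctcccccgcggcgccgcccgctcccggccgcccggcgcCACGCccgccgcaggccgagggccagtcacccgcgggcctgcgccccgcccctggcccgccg
Srxn1, chr2:152105274-152105573, plus strand: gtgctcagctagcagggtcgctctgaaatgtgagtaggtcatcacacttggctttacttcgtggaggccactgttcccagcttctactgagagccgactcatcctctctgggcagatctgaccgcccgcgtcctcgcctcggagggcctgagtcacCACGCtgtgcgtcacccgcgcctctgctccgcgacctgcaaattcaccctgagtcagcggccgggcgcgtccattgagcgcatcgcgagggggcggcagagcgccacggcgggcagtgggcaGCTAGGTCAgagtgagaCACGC
No match to either core was found in these 300 bases of Akr1b10. Gclm held 1 antioxidant core on the minus strand, its leftmost base at -134 from the start, and 3 xenobiotic cores. Srxn1 held 1 antioxidant core on the minus strand, its leftmost base at 28, and 2 xenobiotic cores.

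The first Akr1b10 probeset was the member probeset that differed most between the classes. Its level was 6.17 at the lowest, 7.14 at the median and 8.23 at the highest in susceptible mice. Intermediate mice ran from 5.92 through 6.51 to 8.85. Resistant mice had 9.56, 9.36, 8.25, 7.76, 7.16 and 6.77. Of the resistant mice 3 lay above every susceptible mouse, and the other 3 lay within the susceptible range. Susceptible mice averaged 7.09 ± 0.78 (SD, n = 12), against 8.14 ± 1.14 for resistant mice (SD, n = 6), a difference of -1.06 on the log2 scale (SE 0.42), or 2.08-fold lower. This did not pass the adjustment in limma (unadjusted p = 0.0211, adjusted p = 0.399), nor did an exact two-sided permutation of the class over mice (p = 0.0339, adjusted p = 0.470). These p-values measure the spread between mice. The study's own list holds this probeset, as a gene with a class difference in these papillomas and a tumor-specific link between genotype and expression. The study used another test, Significance Analysis of Microarrays, so its listing and the limma result over mouse means are not like for like. Its class difference was chosen on these arrays, so it is not independent evidence. The second Akr1b10 probeset went the other way, 0.23 higher in susceptible mice (SE 0.31, limma adjusted p = 0.897).

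The difference of the first Akr1b10 probeset was larger in size within start cohorts. In the 3 cohorts with mice of both classes, every resistant mouse lay above every susceptible mouse, with differences of -1.75 (2 susceptible and 2 resistant mice), -2.35 (3 and 1) and -1.76 (1 and 1). With start cohort as a fixed block the difference was -1.95 in limma (p = 0.00220, adjusted p = 0.304). That fit takes the difference from these 3 cohorts only. Resistant mice 35 (6.77) and 37 (7.16), the lowest of their class, are in other cohorts and do not add to it. An effect of cohort and the loss of such mice cannot be told apart here. With no cohort in the limma fit, the difference was -0.81 without resistant mouse 7 (p = 0.0739) and -0.77 without resistant mouse 10 (p = 0.0795).

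**Figure D1:**
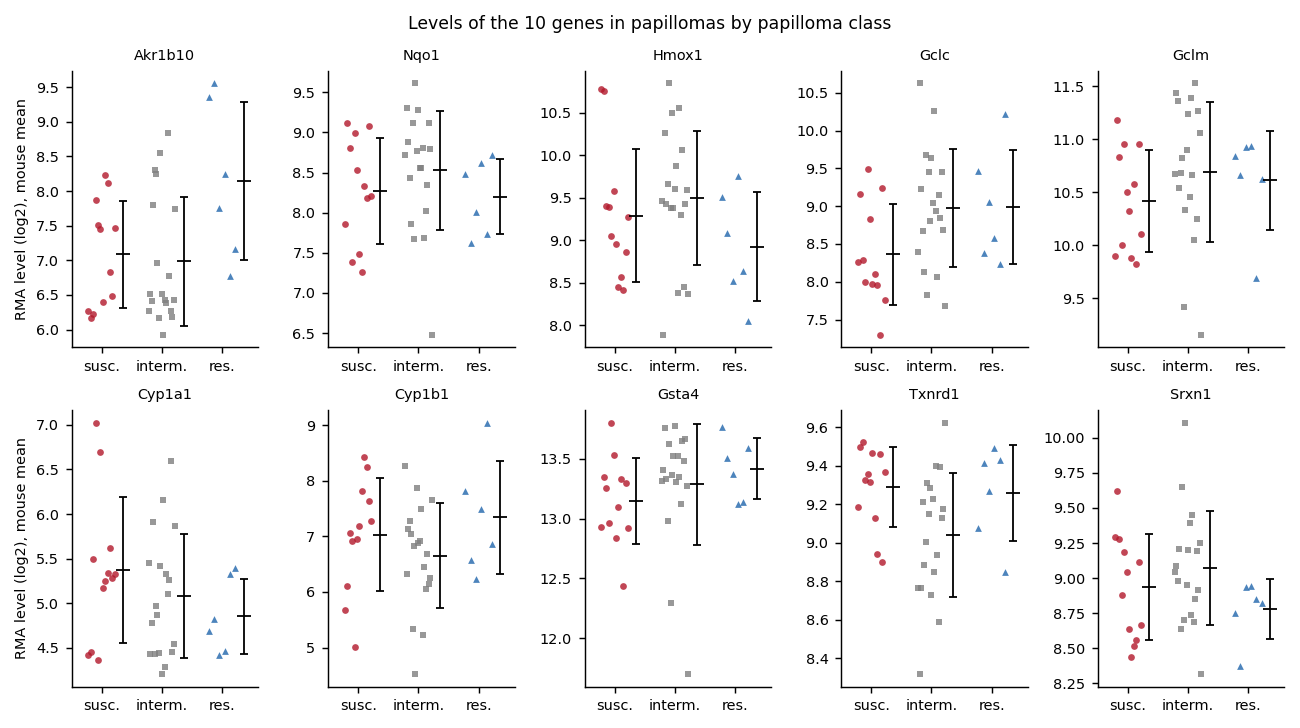
Level of 1 probeset for each of the 10 genes (log2 RMA values) in each of 37 mice, with 12 susceptible mice (circles), 19 intermediate mice (squares) and 6 resistant mice (triangles) and the mean ± SD of each class as a bar. The classes overlapped for every gene, and 3 resistant mice lay above all susceptible mice for Akr1b10.

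No member separated the classes. Of the 19 tested member probesets 0 passed an adjusted p of 0.05 in limma, where 0.051% of all tested probesets did (11 of 21581). At an unadjusted p under 0.05 there was 1, the Akr1b10 probeset, against 9.52% of all tested probesets, and the exact permutation test also gave 1. The differences were positive in 10 and negative in 9, with a median of 0.01, the same as over all tested probesets. Gclc came next: it averaged 8.36 ± 0.67 in susceptible mice and 8.99 ± 0.76 in resistant mice, a difference of -0.63 (SE 0.33, limma adjusted p = 0.557). Cyp1a1 averaged 5.37 ± 0.82 in susceptible mice and 4.85 ± 0.42 in resistant mice (0.52, SE 0.33, limma adjusted p = 0.666). Hmox1 averaged 9.29 ± 0.79 and 8.93 ± 0.64 in these classes (0.36, SE 0.35, limma adjusted p = 0.815). The slope on the number of papillomas gave 0 member calls in 37 mice (background 0.00463%) and coat color gave 0 (background 0.0741%). The slope on days to sacrifice, known for 31 mice, gave 0 calls among members and 0 among all tested probesets (0%). At an unadjusted p under 0.05 the numbers for these 3 were 0, 0 and 2, where 10.9%, 7.87% and 5.51% of all tested probesets had such a p. The last were Hmox1 (0.57 per 100 days, SE 0.25, unadjusted p = 0.0274, limma adjusted p = 0.903) and Srxn1 (0.28, SE 0.12).

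The sexes gave the most uneven picture. Of the 19 member probesets 11 had an unadjusted p under 0.05 between 21 females and 16 males, where 14.9% of all tested probesets did. In 9 of these 11 the level was higher in males, which held for 7.82% of all tested probesets. They were the probeset of Nqo1, both of Gclc, both of Gclm, 3 of Srxn1 and the second Akr1b10 probeset. These are not independent results. Several measure 1 gene, and Nqo1 varied with Gclc, Gclm and Srxn1 over the same mice. The first Akr1b10 probeset was one of the 2 that were higher in females, 7.48 ± 0.93 against 6.84 ± 0.97 in males (0.64, SE 0.30, unadjusted p = 0.0432, limma adjusted p = 0.321). None passed the adjustment over all probesets in limma (smallest adjusted p = 0.217), where 0.0695% did. Gclc ran from 7.30 through a median of 8.23 to 10.23 in females and from 8.27 through 9.09 to 10.63 in males. The sexes overlapped widely, with a difference of -0.62 (SE 0.23, unadjusted p = 0.0111, limma adjusted p = 0.254). Nqo1 averaged 8.16 ± 0.76 in females and 8.70 ± 0.40 in males, a difference of -0.54 (SE 0.20, limma adjusted p = 0.249). With start cohort as a covariate, an alternative chosen after seeing the data, 12 members had an unadjusted p under 0.05 and 0 passed. Without the mice against the sex label 10 had, and 0 passed. For a class difference that itself differed between the sexes, 0 members passed in limma and 2 had an unadjusted p under 0.05, where 4.78% of all tested probesets did. Several marker lists also differed in mean between the sexes. All 13 striated muscle markers (median difference 0.80), all 16 macrophage markers (0.50) and all 7 neutrophil markers (0.16) were higher in females on average, and all 14 keratinocyte markers (-0.15) and 14 of 15 hair follicle markers (-0.41) were lower, with 0 past the adjustment in limma. The mean of the macrophage markers ranged from 7.83 to 10.51 in females and from 7.72 to 10.04 in males. The part of these lists in the differences was not tested.

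The other genes of these pathways showed the same lack of calls. Of 40 listed NRF2 targets 34 were tested, and 0 passed between the classes (16 higher, 18 lower in susceptible mice, median difference -0.04 against 0.01 over all tested probesets). Those of largest difference beside Gclc were Gsr, glutathione reductase (-0.59), Me1, a NADPH-making malic enzyme (0.53), and Osgin1 (-0.48). Among 12 tested NRF2 regulators 0 passed, and Nfe2l2 itself differed by 0.20 (SE 0.13) and Keap1 by -0.18 (SE 0.12). In 7 tested AHR battery genes 0 passed, with Aldh3a1, an aldehyde dehydrogenase, at 8.64 ± 1.72 in susceptible mice and 7.60 ± 1.38 in resistant mice. Of 23 tested genes of retinoid metabolism 0 passed and 16 had the higher mean in susceptible mice. Sdr16c5, a retinol dehydrogenase, came closest, with 10.14 ± 0.45 in susceptible mice and 8.69 ± 0.84 in resistant mice (limma adjusted p = 0.0546). Lrat, which esterifies retinol, averaged 6.98 ± 0.59 and 5.98 ± 0.57 in these classes (limma adjusted p = 0.178). Glutathione enzymes (29 tested), thioredoxins and peroxiredoxins (14) and genes of iron and heme (12) also gave 0.

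Among the 9 tested aldo-keto reductases the class differences ran both ways and 0 passed in limma. Akr1b8, the neighbor of Akr1b10, averaged 10.61 ± 0.50 in susceptible mice and 10.97 ± 0.76 in resistant mice (-0.36, SE 0.28). Akr1d1, which reduces the steroid double bond, averaged 8.22 ± 0.99 in susceptible mice and 6.76 ± 0.50 in resistant mice (1.47, SE 0.40, adjusted p = 0.178). Akr1c18, which inactivates progesterone, differed by 0.97 (SE 0.47). Akr7a5 differed by -0.19 (SE 0.08). The remaining 4, Akr1a1, Akr1c13, Akr1cl and Akr1e1, lay between -0.03 and 0.38. Over the 37 mice the first Akr1b10 probeset varied with Akr1b8 (r = 0.62) and against Akr1d1 (r = -0.65), both descriptions over 37 mouse means. With the second Akr1b10 probeset Akr1b8 had r = -0.33.

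The 2 tested Akr1b10 probesets were high in different mice (r = -0.59 over 37 mice, adjusted permutation p = 0.000227). The third, never above the array median, ran from 3.07 to 3.71. Within the 3 start cohorts of at least 6 mice its r was 0.84, 0.79 and 0.70 with the second probeset. With the first it was -0.86, -0.76 and -0.32. The 17 mice with the highest first Akr1b10 probeset, at 7.16 and above, were the same 17 as those with the lowest second probeset, at 5.22 and below. The next mice stood at 6.96 and 5.29. This order was noticed in the values and the number 17 chosen after seeing them, so it is given as a description. Array medians ran from 5.18 to 5.28, so in these 17 mice the second probeset was near or below the array medians. The level of the second probeset was 5.23 ± 0.68 in susceptible mice, 5.59 ± 0.73 in intermediate mice and 5.01 ± 0.66 in resistant mice, and it was above the array median in 39 arrays. Intermediate mouse 3 had the highest value, 7.45.

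Genes of chromosome 6, where Akr1b10 lies, were frequent among those that varied like it. Of the 10 genes of highest r with the first Akr1b10 probeset over the 37 mice, 7 lie on chromosome 6, as do all 5 of lowest r. The highest were Mrpl35, a mitochondrial ribosomal protein (r = 0.73), Gstk1, a mitochondrial and peroxisomal glutathione transferase (0.71), Retsat, which saturates retinol (0.70), Herc6 (0.68) and Tmem176a (0.67). U90926 (0.65), Ifi35 (0.64) and Rab27a (0.64) lie on other chromosomes, followed by Plekha8 (0.63) and Akr1b8 (0.62) on chromosome 6. The lowest were Luc7l2 (-0.74), the histone demethylase Kdm7a (-0.72), Ubn2 (-0.71), Elmod3 (-0.70) and Asns, asparagine synthetase (-0.70). Of 1098 tested probesets on chromosome 6, 64 (5.83%) had an r of 0.5 or more in size, against 137 (0.670%) of 20456 elsewhere. With the second probeset there were 125 (11.4%) and 378 (1.85%), and the 10 genes most like it were all on chromosome 6. The highest share on any other chromosome was 1.67% for the first Akr1b10 probeset and 3.55% for the second. Backcross mice inherit a chromosome in long stretches, so these probesets are not independent of each other, and genotypes were not analysed here. For the first Akr1b10 probeset the study lists a locus on chromosome 6, near the gene, whose genotype goes with its expression in tumors. The level there was higher in heterozygous mice. The study's supplement states that strain differences in sequence under the probes can in principle give false links of this kind. For the Akr1b10 probes this was not tested here.

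Opposite runs between probesets of 1 gene also occurred in some of the genes beside Akr1b10. Slc35b4, a nucleotide sugar transporter 3 genes away, had r of -0.47, 0.44 and 0.56 with the first Akr1b10 probeset in its 3 probesets. Chchd3, 6 genes away, had -0.45 and 0.43 in the 2 that passed the filter. Exoc4, 5 genes away, had -0.20, 0.02, -0.40 and -0.12. Bpgm, which makes bisphosphoglycerate, lies 2 genes to the other side and had -0.51, -0.10 and -0.13. Cald1, caldesmon, had 0.03 in 3 probesets and -0.47 in the fourth tested. Tmem140 had -0.08. None of these neighbors passed between the classes.

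**Figure D2:**
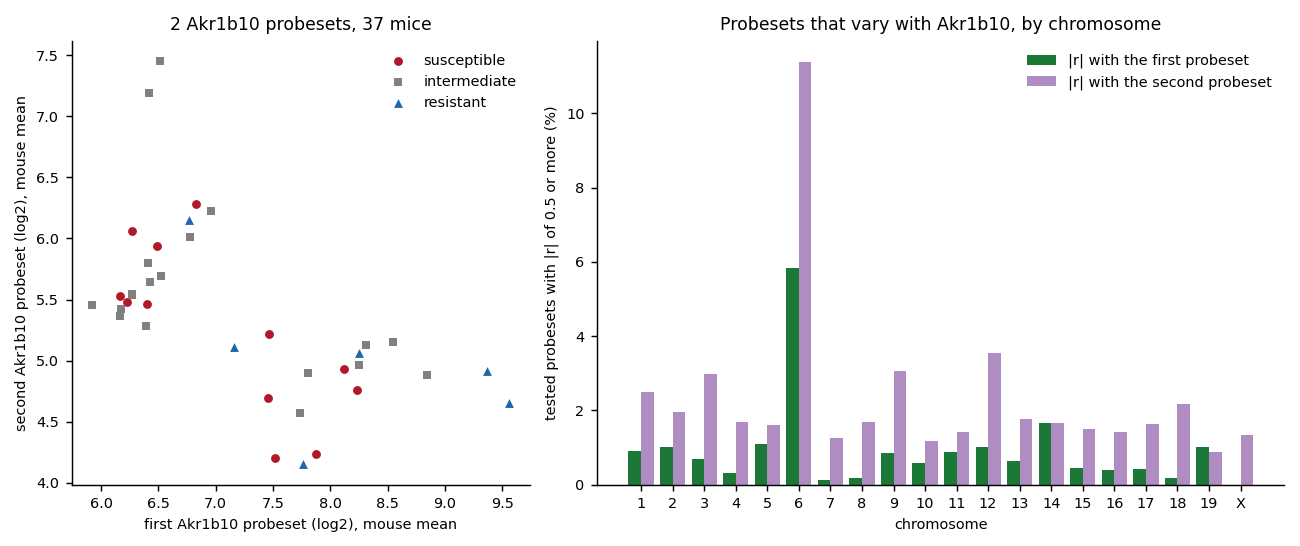
Left, level of the 2 Akr1b10 probesets (log2 RMA values) in 37 mice, 12 susceptible, 19 intermediate and 6 resistant; right, share of tested probesets on each chromosome (percent) with a Pearson r of 0.5 or more in size with either probeset. The 17 mice highest for the first Akr1b10 probeset are the 17 lowest for the second, which is near or below the array medians in them. Chromosome 6 has the highest bars, 5.83% and 11.4%.

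Papillomas of 1 mouse resembled each other in most members. The intraclass correlation (ICC), the share of variance between mice over 31 pairs, was tested by F. Of the 19 tested member probesets 18 passed an adjusted p of 0.05, where 71% of all tested probesets did. Their median was 0.62, against 0.44 over all tested probesets. The second Akr1b10 probeset had an ICC of 0.89, rank 77 of 21581, and the first Akr1b10 probeset one of 0.80, rank 455. Gclc had 0.84 and 0.81. The 2 papillomas of a mouse differed by a median of 0.37 in the first Akr1b10 probeset, against 1.07 between papillomas of different mice. In resistant mice its pairs were 9.35 and 9.37 (mouse 7), 9.50 and 9.61 (mouse 10), 8.08 and 8.43 (mouse 34) and 6.87 and 7.44 (mouse 37). Resistant mouse 32 was the exception, with 9.17 in one papilloma and 6.35 in the other, the widest gap of the 31 pairs. Cyp1b1 was least alike within mice, with an ICC of 0.37 (F test over 31 pairs, adjusted p = 0.0276) and, in the other tested probeset, 0.29 (adjusted p = 0.0653). The widest Cyp1b1 gap was also in mouse 32, 7.96 and 4.52. Without the mice against the sex label 16 members passed, where 58.2% of all tested probesets did, and that Cyp1b1 probeset fell to an ICC of 0.09.

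**Figure D3:**
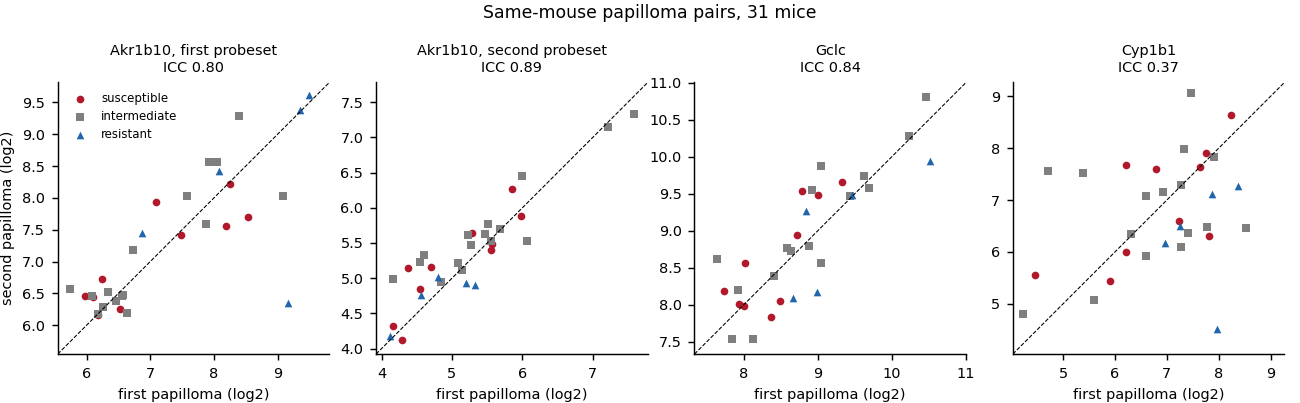
Level in the second papilloma against the first (log2 RMA values) for 31 mice with 2 papillomas, by class, with the line of equal values dashed. Akr1b10 (ICC 0.80 and 0.89) and Gclc (0.84) lie along the line, whereas Cyp1b1 (0.37) scatters, and resistant mouse 32 lies far below it for the first Akr1b10 probeset and for Cyp1b1.

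Some members varied together over the mice. Of 45 pairs of genes 20 had an adjusted p under 0.05 for Pearson's r (10 positive, 10 negative, 100000 permutations), and 19 of these also passed by Spearman's rho. The share of called pairs among other genes is not given here. Nqo1, Gclc, Gclm and Gsta4 formed one set, all 6 pairs passing with r from 0.68 to 0.79. In that order, 4.04%, 5.79%, 2.47% and 2.40% of all tested probesets had r of 0.5 or more with these genes. Gclc and Gclm, the subunits of 1 enzyme, had r = 0.73 and rho = 0.73 (permutation p = 1e-05 for each, the smallest possible, adjusted p = 7.5e-05 for r). Without the 2 mice farthest from the median it was 0.69. Within the 3 start cohorts of at least 6 mice their r was 0.44, 0.84 and 0.78. Gclm and Gsta4 had r = 0.79 (rho 0.69, adjusted p = 7.5e-05 by permutation), with 0.69 without the 2 mice and 0.72, 0.65 and 0.76 within cohorts. Srxn1 varied with Nqo1 (r = 0.72, rho 0.71, permutation p = 1e-05 for each) and with Hmox1 (r = 0.63, rho 0.60, permutation p = 3e-05 and 8e-05), at 0.66 and 0.64 without the 2 mice. Srxn1 also passed with Gclc (r = 0.47) and Gsta4 (r = 0.40), though both calls were lost in an alternative. Hmox1 did not pass with Gclc (r = 0.04), Gclm (0.19) or Gsta4 (0.21). For the pairs of the first set and for Srxn1 with Nqo1 and Hmox1, r kept its sign in each such cohort.

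Txnrd1 had a negative r that passed with 3 genes of the first set, and Cyp1b1 with Srxn1, Hmox1 and Gclc. The sign was also negative for Txnrd1 with Nqo1 (-0.36) and for Cyp1b1 with Nqo1 (-0.37), Gclm (-0.26) and Gsta4 (-0.28). For Txnrd1 r was -0.56 with Gclc, -0.53 with Gclm and -0.45 with Gsta4 (adjusted permutation p = 0.00130, 0.00192 and 0.0163), against -0.04 with Srxn1 and 0.07 with Hmox1. Over all tested probesets of both genes r ran from -0.56 to -0.14 for Txnrd1 with Gclc and from -0.26 to 0.57 for Txnrd1 with Srxn1. The 3 Txnrd1 probesets therefore differ in which members they follow. Cyp1b1 had r = -0.63 with Srxn1 (rho -0.52) and -0.52 with Hmox1 (rho -0.42, adjusted permutation p for r 0.000112 and 0.00409), and -0.41 with Gclc (adjusted permutation p = 0.0320). Hmox1 and Cyp1b1 had r = -0.83, 0.17 and -0.63 within cohorts. Akr1b10 had a negative r with Srxn1 (r = -0.49, rho -0.55, adjusted permutation p = 0.00665), at -0.43 without the 2 mice and -0.74, -0.64 and -0.61 within cohorts. With Nqo1 it had r = -0.39 (rho -0.42, adjusted permutation p = 0.0404), and this call was lost without the 2 mice (adjusted permutation p = 0.0562) and with sex and cohort means removed (r = -0.30, adjusted permutation p = 0.167). Over all tested probesets r took both signs, from -0.39 to 0.28 with Nqo1 and from -0.49 to 0.10 with Srxn1.

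**Figure D4:**
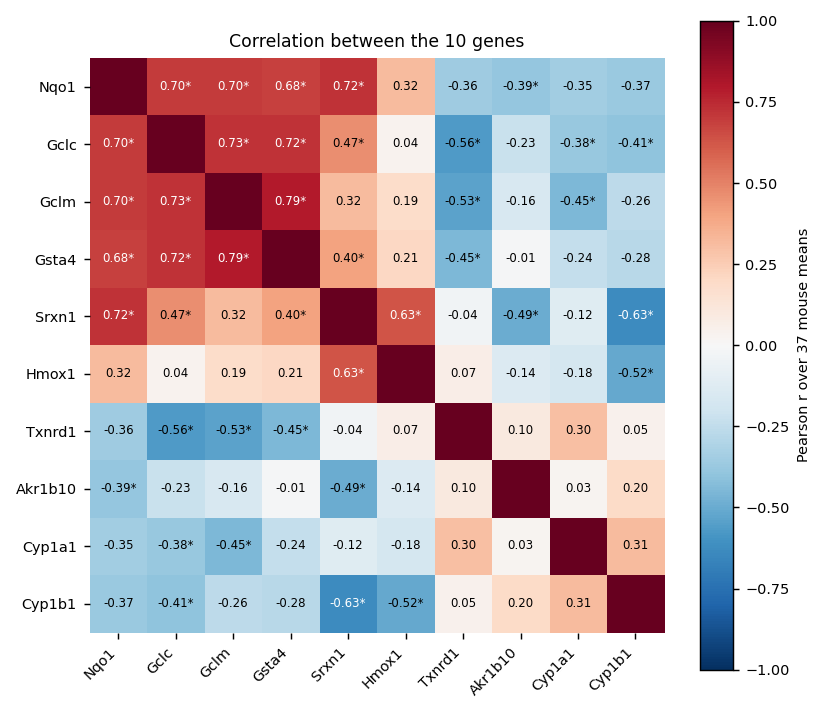
Pearson r over 37 mouse means between the 10 genes, 1 probeset a gene; red is positive and blue negative, and asterisks mark the 20 of 45 pairs with an adjusted permutation p under 0.05. Nqo1, Gclc, Gclm and Gsta4 form a red block, 0.68 to 0.79, and Txnrd1, Akr1b10, Cyp1a1 and Cyp1b1 are mostly blue against it.

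The other listed NRF2 targets, members among them, were counted by their r with single genes. With Nqo1, 13 of the 33 other tested NRF2 targets had r of 0.5 or more, against 4.04% of all tested probesets, and the median r was 0.41. Gpx2, a glutathione peroxidase of epithelia, was highest (0.84), and Cbr3, a carbonyl reductase, had 0.82. With Hmox1 there were 2 (4.27% of all tested probesets), at a median of 0.10. With the first Akr1b10 probeset none of 34 reached 0.5 (0.431% of all tested probesets), 2 were at -0.5 or below, and the median r was -0.17. The second probeset was not counted this way. Over all tested probesets r of Akr1b10 took both signs, from -0.37 to 0.50 with Gclc, from -0.20 to 0.22 with Gclm and from -0.43 to 0.13 with Txnrd1. Of the NRF2 regulators Nfe2l2 had r = 0.53 with Nqo1, and Bach1, a repressor of Hmox1, had -0.60. Aldh3a1, the AHR battery gene, had 0.84 with Nqo1, and Adh7, a retinol-oxidizing alcohol dehydrogenase, had 0.78 with Nqo1 and -0.61 with Akr1b10. The genes named in this paragraph beyond those of largest class difference were chosen after their values were seen.

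Several members varied with cell type markers, most of these with more than 1 list. Of 110 relations between the 10 genes and 10 marker lists or the Actb 3' to 5' ratio, 30 had an adjusted p under 0.05 by permutation. The share among genes outside the members is not given here. Cyp1a1 and the mean of the 10 tested sebocyte markers had the closest, r = 0.83 and rho = 0.82 (permutation p = 1e-05 for each, adjusted p = 0.000367 for r, n = 37 mice). It was 0.80 without the 2 mice farthest from the median, and 0.71, 0.85 and 0.85 within the 3 start cohorts. Of the 10 markers, 3 had r of 0.5 or more with Cyp1a1, namely the lipid synthesis genes Far2 (0.84), Elovl3 (0.80) and Scd1 (0.78), and Fads2 had -0.27. Sebocyte markers ranged from 7.96 through 8.72 to 9.65 in susceptible mice, from 7.58 through 8.40 to 9.54 in intermediate mice and from 7.83 through 8.21 to 8.73 in resistant mice. Cyp1a1 was above the array median in 25 of 68 arrays.

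The means of the macrophage, T cell and fibroblast markers had negative r with Nqo1, Gclc, Gclm, Gsta4 and Srxn1. The r of the macrophage markers was -0.67 with Gclc (rho -0.69), -0.62 with Nqo1 (rho -0.62), -0.63 with Gsta4, -0.49 with Gclm and -0.67 with Srxn1 (rho -0.65), all with an adjusted permutation p under 0.05. For Gclc the r within cohorts was -0.64, -0.67 and -0.12. In the last of these cohorts it was 0.12 for Gclm, -0.04 for Gsta4, -0.23 for Nqo1 and -0.74 for Srxn1. Every one of the 16 macrophage markers had a negative r with these 5 genes, and 14 of 16 were at -0.5 or below with Gclc. The mean of the 7 tested T cell markers had r = -0.72 with Gclc (rho -0.70, and -0.94, -0.69 and -0.65 within cohorts). It had -0.59 with Gsta4, -0.56 with Gclm, -0.50 with Srxn1 and -0.48 with Nqo1. For the mean of the 11 tested fibroblast markers r ran from -0.51 to -0.46 with these 5 genes. Each had an adjusted permutation p under 0.05. Of the T cell markers Cd8a alone had a positive r with these genes, from 0.20 (Gclm) to 0.41 (Nqo1), and Thy1 is in both lists. In single cohorts the r of T cell markers was 0.17 with Nqo1 and 0.13 with Gsta4. That of fibroblast markers was 0.03 with Gsta4 and 0.00 with Srxn1, and the other cohort values were negative. Gclc also varied against striated muscle (r = -0.46) and endothelial markers (-0.43). Srxn1 varied with keratinocyte markers (r = 0.51, rho 0.65, adjusted permutation p = 0.00997). Cyp1b1 varied with macrophage (r = 0.61), fibroblast (0.61), striated muscle (0.64), endothelial (0.59), neutrophil (0.54) and T cell markers (0.50), and against keratinocyte markers (-0.41). It also varied with the Actb ratio (r = 0.46, rho 0.39, adjusted permutation p = 0.0190), a measure of RNA breakdown. Akr1b10 passed with no list by r (0.34 with macrophage markers, adjusted permutation p = 0.0992) and by rho with 3, among them macrophage markers (0.43, adjusted permutation p = 0.0285). What part cell mixture has in the sets above was not tested.

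**Figure D5:**
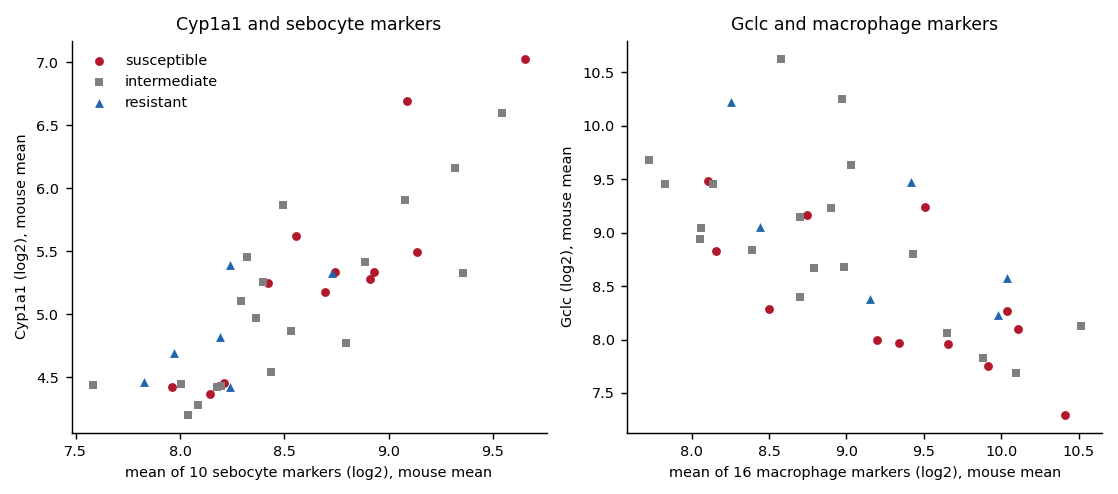
Left, Cyp1a1 level (log2 RMA values) against the mean of 10 sebocyte markers; right, Gclc level against the mean of 16 macrophage markers, each for 37 mice by class. Cyp1a1 rises with the sebocyte mean (r = 0.83) and Gclc falls with the macrophage mean (r = -0.67).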

How the data were processed

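The deposited values were log2 values per probeset of 68 arrays, 1 papilloma each, which the authors made by RMA (background correction, quantile normalization and probe summary; version not given in the sources used here). The array annotation gave 34945 of 45101 probesets 1 symbol, 932 several and 9160 none, beside 64 controls. Chromosomes, gene order and promoters were taken from RefSeq (GRCm38.p6). Groups came from papilloma counts in the labels (susceptible over 7, resistant under 2), and the mouse was the replicate. Class, papilloma number (log2 of the count plus 1), sex, coat color (with sex as covariate) and days to sacrifice were fitted with limma 3.58.1 in R 4.3.3 and adjusted by Benjamini-Hochberg, threshold 0.05. The fits and the ICC test were tested on simulated data. Permutation tests used 18564 class splits or 100000 permutations (exact within cohorts), two-sided, in Python 3.11.15, numpy 2.4.6 and scipy 1.17.1. A gene was represented by its probeset of highest mean over the 68 arrays.

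Named genes were all members, the 10 of highest and 5 of lowest r with Akr1b10, all measured aldo-keto reductases, up to 4 members of largest class difference from each list, and chromosomal neighbors. The members and lists were chosen with earlier results of these data known. Alternatives covered the filter, scaling, blocks and covariates, single papillomas, mice whose sex label was in doubt and leaving out each mouse. The number of mice limits the precision. Genotypes were not analysed here.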

Additional observations from a re-analysis of the deposited data

Results flagged for a closer look

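The 6 resistant mice were searched for a value far from the rest in each of the 21 member probesets, and 3 were found, where chance alone gives about 1 in 20. For Gclm, resistant mouse 35 was lowest at 9.70, with the others between 10.62 and 10.93 (gap over range 0.748). Its sex label was in doubt. For Srxn1, resistant mouse 10 was lowest at 8.37, with the others between 8.75 and 8.94 (0.663), and for another Srxn1 probeset resistant mouse 37 was lowest at 7.16, with the others between 7.65 and 7.91 (0.650). The class difference did not differ between the sexes for any of the 19 tested members at an adjusted p under 0.05 in limma (0 passed, smallest adjusted p = 0.884, and 2 at an unadjusted p under 0.05, where 4.78% of all tested probesets had such a p).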

How the results depend on the processing

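Under 31 alternatives of the class comparison the number of members past the threshold stayed at 0, and the difference of the first Akr1b10 probeset stayed negative, between -1.95 with start cohort as a fixed block and -0.77 without resistant mouse 10, with an adjusted p from 0.0641 with arrays taken as samples to 0.650. Within the 3 start cohorts that hold both classes it was -1.75, -2.35 and -1.76, with no test. No called result reversed. The number of all probesets called, 11, was 28 with array medians subtracted, 19 with intermediate mice in the fit, 1 with start cohort as a fixed block, 23 as a random block, 2 with mouse as a random block over arrays, 366 with arrays as samples, 0 with the first papilloma only, 6 with the Actb ratio as covariate, 28 without the mice against the sex label and 0 by exact permutation. When each mouse was left out it was 4 (resistant mouse 34) to 89 (susceptible mouse 29). The slope on papilloma number called 1 probeset, 0 with the counts at 24 weeks and 4 with sex and start cohort as covariates. The cause was not tested, though with arrays as samples 2 papillomas of 1 mouse count as independent. For single members and pairs of genes, 16 calls were lost in an alternative, 3 ICC values (2 of Cyp1b1, 1 of Srxn1) and 13 correlations (Gclc with Cyp1a1, Cyp1b1 or Srxn1, Gsta4 with Srxn1 or Txnrd1, and Akr1b10 with Nqo1). The sex comparison with start cohort as a covariate was chosen after seeing the data. No paired analysis was possible because the replicate numbers in the labels name the papillomas of 1 mouse, and the groups hold different mice.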
